A study of Homo sapiens with 15 samples.

Results

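The direct comparison of progesterone with dexamethasone used 6 of the 15 arrays of a study of ZR-75-1 cells, a human mammary carcinoma line that carries the estrogen receptor. They are the 3 arrays titled PROG, from cells given 10 nM PROG for 6 h, and the 3 titled DEX, from cells given 10 nM DEX for 6 h. Cells were grown in RPMI-1640 with serum, which the labels do not describe as stripped of steroids. The vehicle group (3 arrays, 0.1% ethanol, also labelled untreated) and the groups given 10 nM MPA or DHT (3 arrays each) entered the same fit, and their levels are given as background. PROG and DEX are read here as progesterone and dexamethasone, MPA as medroxyprogesterone acetate and DHT as dihydrotestosterone, the usual meaning of these abbreviations. Whether the 3 arrays of a group stem from separate cultures is not in the labels, and every p-value here therefore reflects array-to-array spread, part or all of which may be technical.

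Progesterone is the natural ligand of the progesterone receptor, the product of PGR, and dexamethasone is a synthetic ligand of the glucocorticoid receptor, the product of NR3C1. Dexamethasone carries a fluorine atom, an extra methyl group and several hydroxyl groups that progesterone lacks. Both receptors are ligand-activated transcription factors that recognise the same palindromic DNA element, and in breast epithelium they are known to act on overlapping sets of genes. PGR is itself an estrogen-induced gene of luminal breast cells. NR3C1 has no probe set with a gene symbol here and was not analysed here.

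Values are deposited log2 levels, differences are PROG minus DEX ± the standard error of the limma fit with n = 3 arrays a group. Called probe sets have a Benjamini-Hochberg adjusted limma p under 0.05 over the 14841 probe sets, of 34878 deposited, that have 1 gene symbol. This was 1 pair of compounds at 1 dose and 1 time. A call is termed held where it also stood in each of 6 fits that left out 1 PROG or DEX array. The arrays had medians of 3.69 to 3.73, and arrays within a group correlated with r of 0.997 to 0.998 over all deposited probe sets. All 13 measured luminal markers had means above the table median of 3.7, among them KRT18, GATA3 and ESR1. Of the markers of other cell types, 2 of 6 basal, 1 of 3 fibroblast and 2 of 5 blood or endothelial genes did. These were EGFR, OXTR, LUM, CD68 and LYZ, while KRT5, KRT14, DCN and VWF were among those below it. Of the 14841 probe sets tested, 9518 lay above it, so a level above it marks no cell type by itself. The mean level over the basal markers was 4.27 to 4.37 on the PROG arrays and 4.21 to 4.23 on the DEX arrays, and EGFR was the 1 called gene among them. The deposited values carry no detection calls, so a level under the table median cannot be told from background here.

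The 2 compounds differed at 211 probe sets, 1.42% of those tested. Of these, 153 were higher with PROG (1.03%) and 58 higher with DEX (0.391%), and 46 differed by at least 1.5-fold (0.310%), 40 higher with PROG and 6 higher with DEX. Of the held calls (0.782%), 94 were higher with PROG (0.633%) and 22 higher with DEX (0.148%). The larger number of calls on the PROG side stood without any 1 array, but the number higher with DEX fell to between 32 and 38 without any 1 of the 6 arrays: 32 without PROG 1, 35 without PROG 2, 36 without PROG 3, 38 without DEX 1, 37 without DEX 2 and 34 without DEX 3. With only the 6 PROG and DEX arrays in the fit it was 23, and the number higher with PROG was 99. In all 211 called probe sets the PROG and DEX arrays did not overlap, as was the case for 14% of all probe sets. The 95% interval of the difference lay within 1.5-fold in either direction for 14613 probe sets (98.5%), so a larger difference was outside the interval for most genes.

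**Figure D1:**
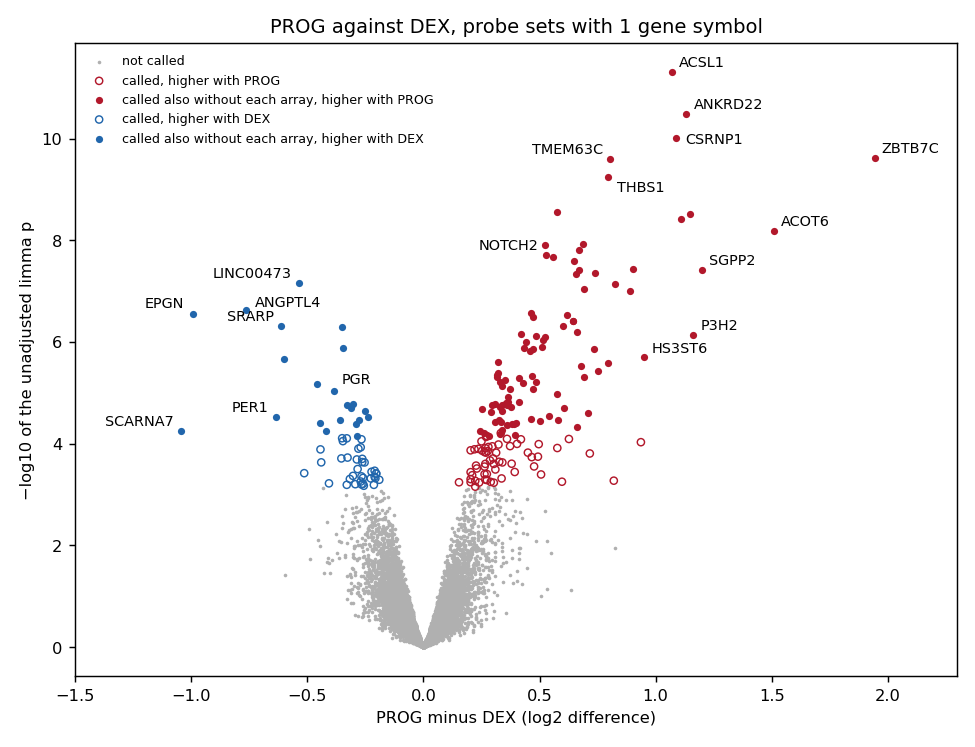
Each point is 1 of the 14841 probe sets, with the PROG minus DEX log2 difference on the horizontal axis and −log10 of the unadjusted limma p on the vertical axis. Red and blue points are the 153 and 58 calls, filled where held, and the longest right-hand arm ends at ZBTB7C (1.94).

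The largest differences were genes high with PROG and near the vehicle level with DEX. ZBTB7C, a BTB zinc finger gene, stood at 6.64, 7.10 and 6.62 on the PROG arrays and at 4.79, 4.93 and 4.81 on the DEX arrays, a 3.85-fold difference (1.94 ± 0.12, adjusted p = 7.58e-07). The vehicle arrays read 4.68, 4.62 and 4.88, so all 3 PROG arrays lay far above the other 6 and the DEX and vehicle arrays overlapped. PROG 2 was the highest of its group, and the call held without it. Differences from vehicle are given beside each other for both compounds, and both use the same 3 vehicle arrays. ZBTB7C rose with PROG by 2.06 ± 0.12 against vehicle (adjusted p = 1.28e-07), and the DEX difference from vehicle was 0.12 ± 0.12 (adjusted p = 0.800).

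ACOT6, of the acyl-CoA thioesterase family, read 5.51, 5.26 and 5.47 with PROG and 4.05, 3.79 and 3.87 with DEX (1.51 ± 0.12, adjusted p = 9.81e-06). The DEX arrays of ACOT6 lay only just above the table median of 3.7, so its DEX level may be near background. ACSL1, which activates long-chain fatty acids to their CoA esters, read 8.84, 8.86 and 8.72 with PROG and 7.72, 7.75 and 7.74 with DEX. It had the smallest p of the comparison at a 2.10-fold difference (1.07 ± 0.050, adjusted p = 7.36e-08). The DEX arrays of ACSL1 lay just above the vehicle arrays of 7.63, 7.68 and 7.57, by 0.11 ± 0.050 (adjusted p = 0.459), while PROG raised it by 1.18 ± 0.050 (adjusted p = 4.92e-09).

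SGPP2, a phosphatase of sphingosine-1-phosphate, read 6.34, 6.56 and 6.32 with PROG and 5.29, 5.36 and 4.97 with DEX (1.20 ± 0.11, adjusted p = 3.05e-05). P3H2, a collagen prolyl hydroxylase, read 4.46, 4.73 and 4.50 with PROG and 3.56, 3.32 and 3.32 with DEX (1.16 ± 0.14, adjusted p = 2.81e-04). All 3 DEX arrays of P3H2 lay under the table median, so the DEX level of this gene may be background and its fold is uncertain. THBS1, a matricellular protein, was bright and tightly grouped, at 9.21, 9.25 and 9.27 with PROG and 8.34, 8.49 and 8.52 with DEX (0.79 ± 0.053, adjusted p = 1.39e-06). THBS1 also rose with DEX, by 0.25 against vehicle (adjusted p = 0.0326), against 1.05 with PROG (adjusted p = 2.67e-08).

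For EMP1, an epithelial membrane protein, both compounds were well above vehicle and PROG further. Its arrays read 7.31, 7.28 and 7.49 with PROG, 6.37, 6.49 and 6.55 with DEX and 5.47, 5.66 and 5.40 with vehicle, 3 groups with no overlap (PROG minus DEX 0.89 ± 0.089, adjusted p = 5.91e-05). TMEM63C, of a family of mechanosensitive ion channels, had the same order, with 9.40, 9.57 and 9.42 for PROG and 8.69, 8.64 and 8.65 for DEX (0.80 ± 0.050, adjusted p = 7.58e-07). ANKRD22, an ankyrin repeat gene, read 8.08, 8.15 and 8.01 against 6.98, 6.89 and 6.97 (1.13 ± 0.060, adjusted p = 2.42e-07). DEX raised these 3 genes by 0.96, 0.53 and 0.38 against vehicle in the order named, with adjusted p of 5.80e-05, 6.84e-05 and 0.00601.

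The other genes among the 15 largest held differences on the PROG side were not called between DEX and vehicle. They were GREB1L (1.15 ± 0.087), a paralogue of GREB1, LRRC31 (1.11 ± 0.085), the nuclear protein gene CSRNP1 (1.09 ± 0.063) and HS3ST6 (0.95 ± 0.12), a heparan sulfate sulfotransferase. They also included the thrombin receptor gene F2R (0.90 ± 0.083), the netrin receptor gene UNC5B (0.83 ± 0.080) and ARHGEF37 (0.80 ± 0.10). Their limma adjusted p lay between 4.87e-07 for CSRNP1 and 7.25e-04 for ARHGEF37. DEX minus vehicle ran from -0.027 for LRRC31 and HS3ST6 to 0.31 for F2R (adjusted p = 0.124). For F2R, CSRNP1 and ARHGEF37 all 3 DEX arrays lay above all 3 vehicle arrays, so a small rise with DEX is not excluded. The DEX and vehicle arrays of GREB1L, LRRC31, HS3ST6 and UNC5B overlapped. In the fit of the 6 PROG and DEX arrays alone ARHGEF37 just missed the threshold (adjusted p = 0.0504).

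**Figure D2:**
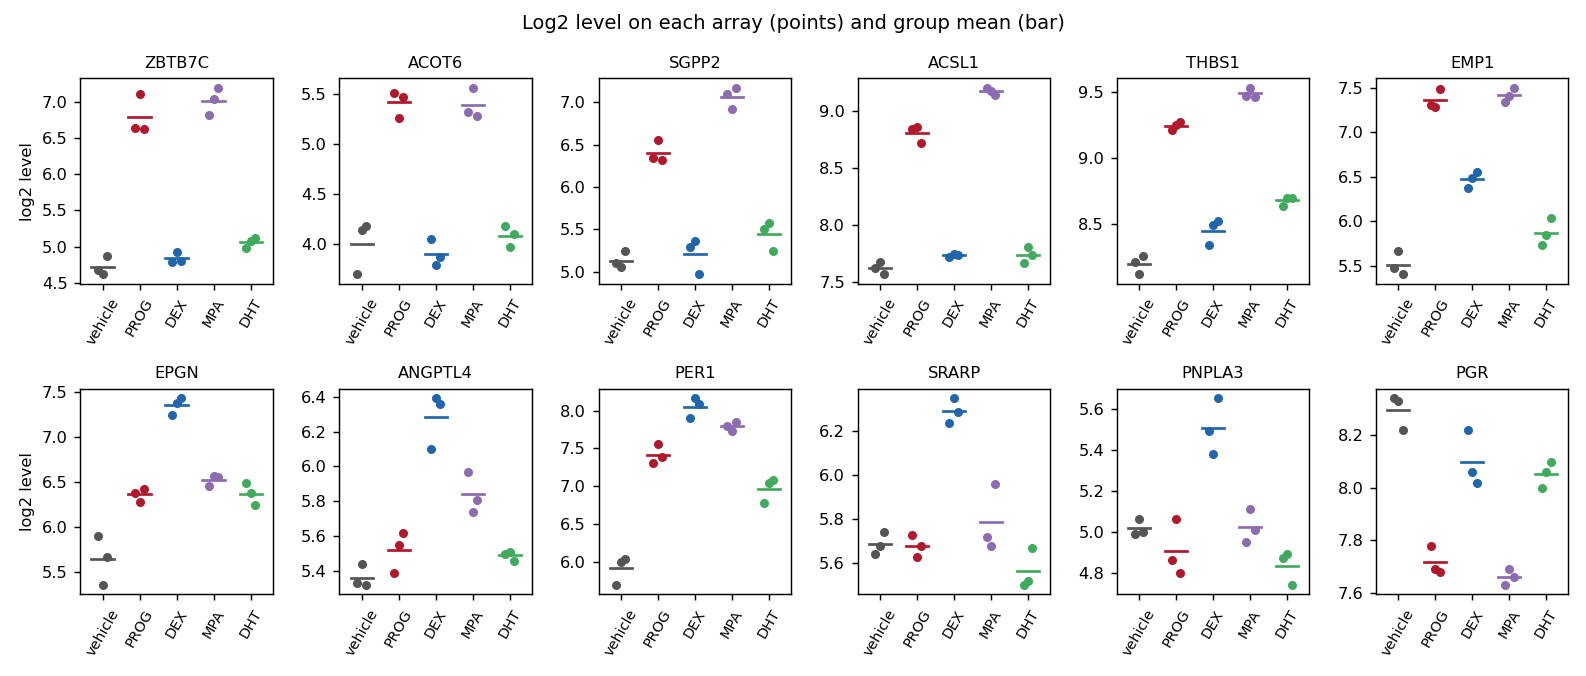
Log2 level on each of the 15 arrays (points) with group means (bars) for 12 genes; each panel has its own vertical axis, which does not start at 0. ZBTB7C, ACOT6, SGPP2 and ACSL1 are high with PROG and MPA, EPGN, ANGPTL4, PER1, SRARP and PNPLA3 are highest with DEX, and PGR is lowest with PROG and MPA.

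On the DEX side the largest difference of a protein-coding gene was EPGN, an epidermal growth factor family ligand. It read 7.25, 7.38 and 7.43 with DEX, 6.38, 6.28 and 6.42 with PROG and 5.90, 5.35 and 5.66 with vehicle, a 1.99-fold difference between the compounds (-0.99 ± 0.11, adjusted p = 1.50e-04). The 3 groups did not overlap, and EPGN rose with both, by 1.72 with DEX (adjusted p = 1.05e-06) and 0.72 with PROG (adjusted p = 0.00110). ANGPTL4, a secreted inhibitor of lipoprotein lipase, read 6.10, 6.39 and 6.36 with DEX and 5.39, 5.55 and 5.62 with PROG (-0.76 ± 0.082, adjusted p = 1.37e-04). Here the PROG arrays overlapped the vehicle arrays of 5.33, 5.44 and 5.32 (PROG minus vehicle 0.16 ± 0.082, adjusted p = 0.519).

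PER1, a repressor of the circadian clock and a classical glucocorticoid-response gene, read 7.90, 8.16 and 8.09 with DEX and 7.30, 7.56 and 7.38 with PROG (-0.64 ± 0.10, adjusted p = 0.00486). Both groups lay far above the vehicle arrays of 5.69, 6.00 and 6.04, so PER1 rose with both, by 2.14 with DEX (adjusted p = 7.54e-08) and by 1.5 with PROG (adjusted p = 6.95e-07). No other of the 13 measured clock genes was called between the compounds, and the PER2 difference was -0.047 ± 0.064 (adjusted p = 0.894). With 1.42% of all probe sets called, a list of 13 would hold few calls in any case.

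A further set of genes was above vehicle with DEX and showed PROG levels close to vehicle. SRARP, a steroid receptor-associated protein, read 6.24, 6.35 and 6.29 with DEX and 5.73, 5.63 and 5.68 with PROG (-0.61 ± 0.070, adjusted p = 2.13e-04). PNPLA3, a lipid droplet hydrolase, read 5.49, 5.38 and 5.65 against 4.86, 5.06 and 4.80 (-0.60 ± 0.078, adjusted p = 6.52e-04). The long non-coding RNA LINC00473 read 3.86, 3.89 and 3.94 with DEX and 3.39, 3.35 and 3.34 with PROG (-0.54 ± 0.052, adjusted p = 4.62e-05), and its PROG arrays lay under the table median. DEX raised these 3 by 0.61, 0.49 and 0.50 against vehicle, in the order named, and PROG minus vehicle was -0.0067, -0.11 and -0.033, with adjusted p of 0.988, 0.675 and 0.881.

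GDPD3, of the glycerophosphodiester phosphodiesterase family (-0.36 ± 0.060), the endolysosomal ion channel gene TPCN1 (-0.35 ± 0.043), the focal adhesion gene TNS1 (-0.31 ± 0.049) and the antisense transcript LIN28B-AS1 (-0.45 ± 0.075) likewise rose with DEX, by 0.33 to 0.49 against vehicle. TNS1 read 4.71 on all 3 PROG arrays and 5.06, 4.97 and 5.03 on the DEX arrays. The atypical cyclin gene CCNG2 (-0.35 ± 0.040) and FRY (-0.33 ± 0.052) were instead below vehicle with PROG, by -0.18 and -0.25 (adjusted p = 0.0267 and 0.0150), and neither was called between DEX and vehicle. DEX minus vehicle was 0.17 for CCNG2 (adjusted p = 0.0564) and 0.080 for FRY (adjusted p = 0.657). All DEX arrays of CCNG2 lay above its vehicle arrays. TOMM20L (-0.30 ± 0.047) was called against vehicle with neither compound, and its PROG arrays lay under the table median. The limma adjusted p of these 7 PROG minus DEX differences ran from 2.13e-04 to 0.00574. In the fit of the 6 arrays alone GDPD3 (adjusted p = 0.0504) and FRY (adjusted p = 0.0638) missed the threshold. SCARNA7, a small Cajal body RNA named here after its values were seen, had the largest difference on the DEX side (-1.04 ± 0.18, adjusted p = 0.00756). It read 9.70, 9.62 and 9.19 with DEX and 8.60, 8.49 and 8.29 with PROG, and the third array was the lowest in both groups.

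**Figure D3:**
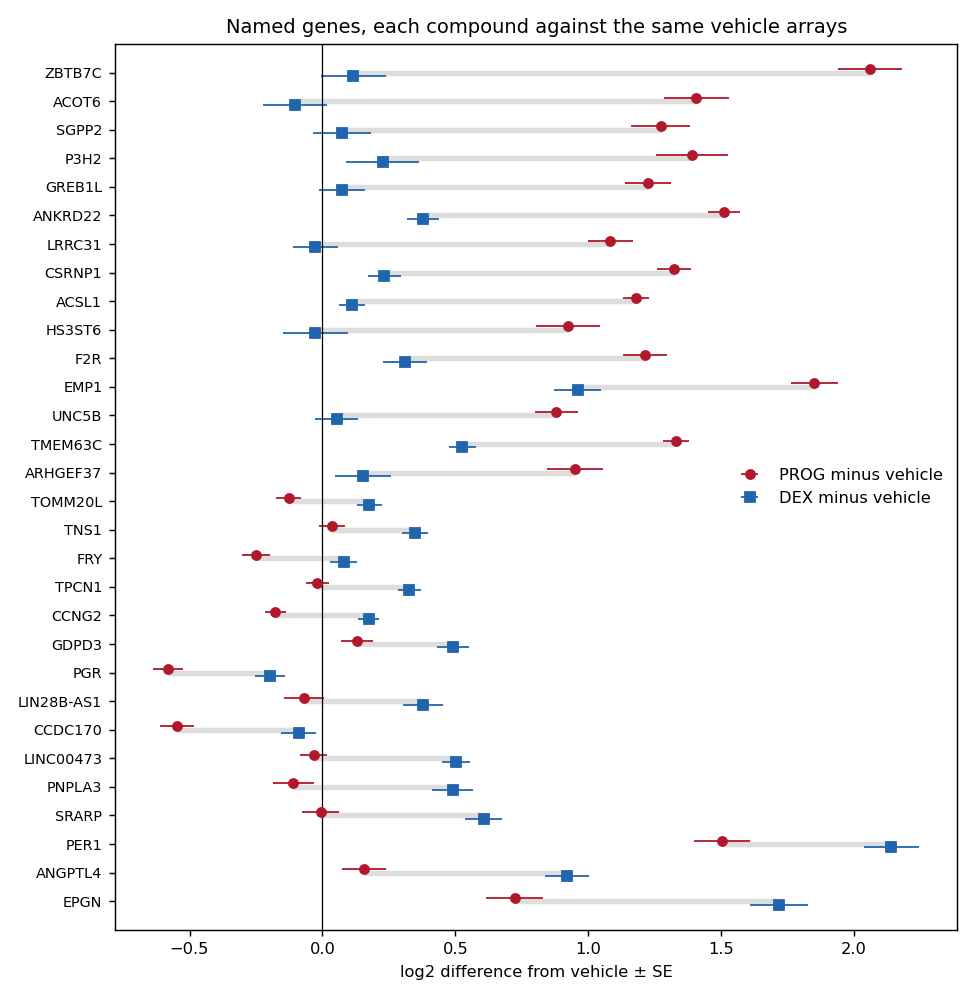
Log2 difference from vehicle ± SE for PROG (red circles) and DEX (blue squares) for the protein-coding and long non-coding genes with the 15 largest held differences in each direction; both differences use the same 3 vehicle arrays. For ZBTB7C, ACOT6, SGPP2 and ACSL1 the DEX square lies near 0, while for EPGN and PER1 both symbols lie to the right of 0.

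The progesterone receptor gene was lower with PROG than with DEX. PGR read 7.78, 7.69 and 7.68 with PROG, 8.22, 8.06 and 8.02 with DEX and 8.34, 8.33 and 8.22 with vehicle (PROG minus DEX -0.38 ± 0.056, adjusted p = 0.00194). The PROG arrays lay below the DEX and vehicle arrays, and the highest DEX array equalled the lowest vehicle array. With the 6 arrays alone the PGR difference missed the threshold (adjusted p = 0.0567). CCDC170, a neighbour of ESR1, read 5.48, 5.48 and 5.52 with PROG and 5.85, 5.93 and 6.07 with DEX (-0.46 ± 0.065, adjusted p = 0.00155), a held call. ESR1, for estrogen receptor alpha, read 7.64, 7.53 and 7.41 against 7.81, 7.95 and 7.80 (-0.33 ± 0.065, adjusted p = 0.0183). The ESR1 call ended without any 1 of PROG 2, PROG 3 and DEX 2 (adjusted p 0.0673 to 0.0956) and in the fit of the 6 arrays alone (adjusted p = 0.155). BCL2, an inhibitor of apoptosis, was lower with PROG by a small and very even amount, at 8.58, 8.58 and 8.59 against 8.82, 8.83 and 8.82 (-0.24 ± 0.039, adjusted p = 0.00486). Among 12 measured receptors, co-chaperones and co-regulators 2 were called higher with DEX, PGR and ESR1, and 1 higher with PROG, FKBP5. Over all probe sets 0.391% were called higher with DEX and 1.03% higher with PROG. The 2 calls higher with DEX became 1 without PROG 2, PROG 3 or DEX 2.

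FKBP5, a co-chaperone that dampens steroid receptor activity, was even within both groups, at 6.09, 6.09 and 6.12 with PROG and 5.50, 5.51 and 5.50 with DEX (0.60 ± 0.13, adjusted p = 0.0420). Its vehicle arrays were less even, at 4.48, 4.43 and 3.83, and the standard error of the fit pools the spread of all 5 groups. Leaving out 1 array, whichever of the 6, ended the call (adjusted p 0.117 to 0.126), as did its test with quantile normalization (adjusted p = 0.0607) and that over all deposited probe sets (adjusted p = 0.0629). With the 6 arrays alone the standard error was 0.037 and the adjusted p 0.00196. FKBP5 rose with both compounds, by 1.85 with PROG (adjusted p = 8.50e-07) and by 1.26 with DEX (adjusted p = 1.81e-04).

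The glucocorticoid-induced list, 28 measured genes known to respond to glucocorticoids in various cells, split in both directions. In all, 10 were called higher with PROG and 5 higher with DEX, against 1.03% and 0.391% of all probe sets. The median difference was 0.11, against -0.01 over all probe sets. Held calls numbered 8 and 2, against 0.633% and 0.148% of all probe sets. Higher with DEX were ANGPTL4, PER1, CRISPLD2, a secreted glucocorticoid-response protein, DUSP1, a MAP kinase phosphatase, and BCL6, a transcriptional repressor. That number was 3 without PROG 1, PROG 2 or DEX 3 and 2 without DEX 1 or DEX 2. DUSP1 read 7.87, 7.80 and 7.85 with DEX and 7.46, 7.60 and 7.61 with PROG (-0.28 ± 0.060, adjusted p = 0.0276), a call lost without any 1 of PROG 1, PROG 2 and the 3 DEX arrays (adjusted p 0.0577 to 0.138), with the 6 arrays alone (adjusted p = 0.0913) and with the replicate block (adjusted p = 0.0574). BCL6 read 8.99, 8.96 and 8.95 with DEX and 8.69, 8.78 and 8.64 with PROG (-0.26 ± 0.053, adjusted p = 0.0215). The BCL6 call ended without any 1 of PROG 1, PROG 3 and the 3 DEX arrays (adjusted p 0.0622 to 0.105) and with the 6 arrays alone (adjusted p = 0.0843).

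Several genes of the same list were higher with PROG. Beside ACSL1, these included PNMT, the enzyme that forms epinephrine (0.66 ± 0.11, adjusted p = 0.00639), whose DEX arrays of 3.20, 3.25 and 3.29 lay under the table median. ERRFI1, a feedback inhibitor of the epidermal growth factor receptor, read 9.86, 9.85 and 9.84 with PROG and 9.43, 9.35 and 9.47 with DEX (0.43 ± 0.053, adjusted p = 4.29e-04). TIPARP, an aryl hydrocarbon receptor repressor (0.48 ± 0.068), TFCP2L1, a transcription factor (0.47 ± 0.064), GLUL, glutamine synthetase (0.33 ± 0.047), and STOM, stomatin (0.28 ± 0.051), were held calls too, with limma adjusted p of 0.00119 to 0.00904. SGK1, a glucocorticoid-responsive kinase, was called (0.41 ± 0.064, adjusted p = 0.00308), but all 6 of its arrays lay under the table median, at 2.93 to 3.42, a level that cannot be told from background here. Of the 8 held genes, DEX minus vehicle was called for TFCP2L1 (0.44), GLUL (0.32) and ERRFI1 (0.26). It was not called for ACSL1 (0.11), PNMT (-0.15), TIPARP (0.090), STOM (0.16) and SGK1 (-0.033), with limma adjusted p of 0.211 to 0.908.

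Several well-known targets showed no call between the compounds. KLF9, a zinc finger transcription factor, read 6.94, 7.02 and 6.88 with PROG and 6.90, 6.69 and 6.79 with DEX, groups that overlapped (0.15 ± 0.092, 95% interval -0.043 to 0.35, adjusted p = 0.650). Both groups lay above the vehicle arrays of 5.74, 5.65 and 5.70. IRS2, an insulin receptor adaptor, differed by 0.12 ± 0.071 (adjusted p = 0.644). The narrowest intervals around 0 among list members called for both compounds against vehicle were those of KRT19, a luminal keratin (-0.11 to 0.084), STC1, a secreted glycoprotein (-0.13 to 0.074), CRY2, a clock repressor (-0.14 to 0.031), and DDIT4, an inhibitor of mTOR signalling (-0.17 to 0.067). BCL2L1, an anti-apoptotic gene, followed with an interval of 0.075 to 0.26. It was not called (adjusted p = 0.0867), but was with dim probe sets left out (adjusted p = 0.0434) and with a variance trend and robust fit (adjusted p = 0.0178). For PIP, a secreted apocrine protein, the difference was -0.20 ± 0.067 (adjusted p = 0.245), and ZBTB16 lay under the table median on all 6 arrays.

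Of the progestin-induced list, 13 of 29 measured genes were called higher with PROG and 1, PER1, higher with DEX. Over all probe sets these shares were 1.03% and 0.391%. Held calls numbered 10 and 1, against 0.633% and 0.148% of all probe sets, and the median difference was 0.17. Beside SGPP2, P3H2, ACSL1, EMP1 and THBS1, these included RANBP3L, of the RAN-binding protein family (0.58 ± 0.097, adjusted p = 0.00532), and S100P, a calcium-binding protein (0.41 ± 0.058, adjusted p = 0.00124). HSD11B2, which inactivates cortisol, read 8.58, 8.72 and 8.47 with PROG, 8.17, 8.20 and 8.25 with DEX and 7.26, 7.38 and 7.18 with vehicle (0.38 ± 0.065, adjusted p = 0.00578). It was the 1 steroid metabolism enzyme of 12 called, and the call ended with the 6 arrays alone (adjusted p = 0.0778). GREB1, a growth regulator induced by estrogen, was higher with PROG by 0.29 ± 0.047 (adjusted p = 0.00398), with 10.16, 10.14 and 10.18 against 9.86, 9.89 and 9.86. GREB1 and PGR, in opposite directions, were the 2 calls among 24 estrogen-induced genes. The progestin list holds genes known from earlier results of these same arrays, so its count is not independent evidence of its direction. All the lists were chosen with earlier results of these data known, so the counts of the glucocorticoid, androgen, EGF family and other lists are not independent evidence either.

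**Figure D4:**
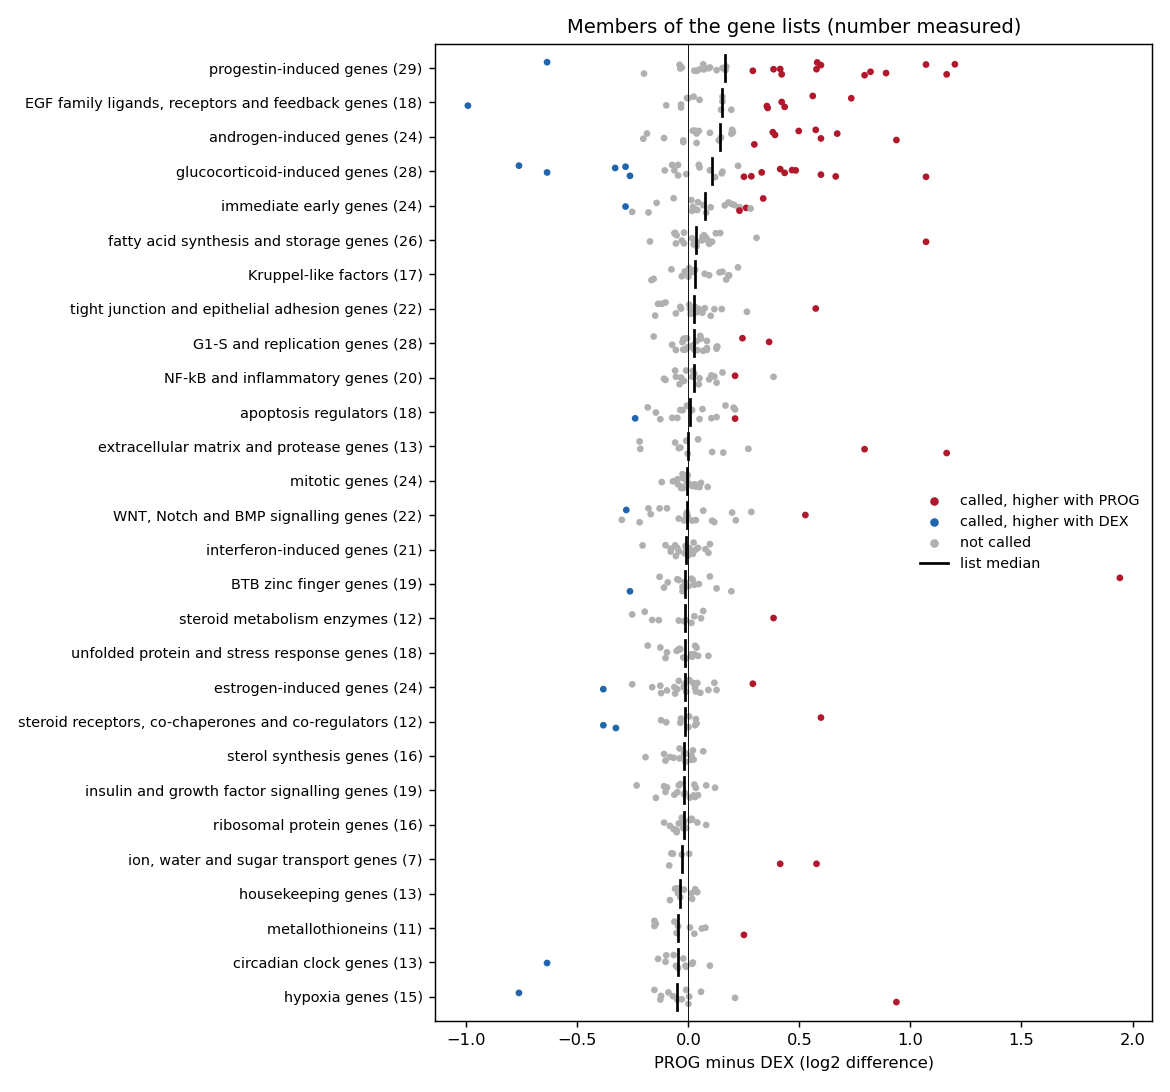
PROG minus DEX log2 difference of each measured member (points) of the 28 gene lists, with the list median as a black bar and the number measured in brackets; red and blue points are called. Medians run from -0.05 for the hypoxia genes to 0.17 for the progestin-induced genes, and most called members belong to the glucocorticoid, progestin, androgen and EGF family lists. Lists and members were chosen with earlier results of these data known.

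Of 24 androgen-induced genes, 8 were called higher with PROG, against 1.03% of all probe sets, and none higher with DEX, against 0.391%. Of the 8, 3 were held, and the list median was 0.14. At an unadjusted limma p under 0.05, 12 were higher with PROG and 2 higher with DEX, against 4.89% and 5% of all probe sets. The 8 became 4 without PROG 1, PROG 2, DEX 1 or DEX 2. The held ones were EAF2, an elongation factor partner (0.67 ± 0.062), CLDN8, a tight junction claudin (0.57 ± 0.085), and HPGD, which degrades prostaglandins (0.39 ± 0.066, adjusted p = 0.00585, and 0.0826 with the 6 arrays alone). The DEX arrays of HPGD, at 3.71, 3.75 and 3.95, lay only just above the table median, so its DEX level may be near background. CLDN8 read 6.91, 6.97 and 6.83 with PROG and 6.29, 6.23 and 6.47 with DEX. Both groups lay above the CLDN8 vehicle arrays of 5.60, 5.68 and 5.38. C1orf116, known as an androgen-regulated gene, read 8.36, 8.37 and 8.22 against 8.02, 7.97 and 8.07, a difference of 0.30 ± 0.056 (adjusted p = 0.0126) beside rises of 1.59 with PROG and 1.30 with DEX. Its call ended without any 1 of PROG 1, PROG 2, DEX 1 and DEX 2 (adjusted p 0.0502 to 0.0726) and with the 6 arrays alone (adjusted p = 0.0896). NDRG1, a stress-response gene, differed by 0.94 ± 0.17 (adjusted p = 0.0109), and lost its call without PROG 1 or DEX 1 (adjusted p 0.0529 to 0.0648).

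Genes of the epidermal growth factor family were called in 7 of 18 cases, all held, with 6 higher with PROG and EPGN higher with DEX, and a median of 0.15. Over all probe sets 1.42% were called and 0.782% held. Among the ligands, EGF itself was higher with PROG (0.35 ± 0.050, adjusted p = 0.00135), opposite to EPGN. Of the receptors, EGFR was higher with PROG (0.42 ± 0.049, adjusted p = 2.81e-04), while ERBB3 (-0.033 ± 0.046) and ERBB4 (0.023 ± 0.060) were not called. Of the feedback inhibitors, SPRY4 read 7.16, 7.35 and 7.09 with PROG and 6.49, 6.55 and 6.36 with DEX (0.73 ± 0.091, adjusted p = 4.38e-04). LRIG1 read 9.23, 9.36 and 9.25 against 8.66, 8.78 and 8.72 (0.56 ± 0.049, adjusted p = 2.10e-05), and ERRFI1 is given above. The receptor adaptor GRB7 was higher with PROG by 0.36 ± 0.055 (adjusted p = 0.00323). The PROG and DEX arrays of all 7 genes were apart, as in all 211 called probe sets, so this adds nothing to the calls.

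Smaller numbers were called in other lists, beside 1.42% of all probe sets. Of 24 immediate early genes, JUN (0.34 ± 0.074), FOSL2 (0.26 ± 0.046) and JUNB (0.23 ± 0.048) were called higher with PROG and DUSP1 higher with DEX. Of these only FOSL2 was held (adjusted p = 0.00818, and 0.0638 with the 6 arrays alone), and the 3 became 1 without PROG 2, PROG 3, DEX 1 or DEX 2. Of 22 WNT, Notch and BMP genes, NOTCH2, a Notch receptor, was higher with PROG, at 11.07 on PROG 1 and 11 on PROG 2 and PROG 3 against 10.50, 10.51 and 10.48 (0.53 ± 0.046, adjusted p = 2.10e-05). Its partial copy NOTCH2NLA was also called higher with PROG (0.45 ± 0.087, adjusted p = 0.0151), a call that was not held. The 2 genes may share probes, so the assignment to NOTCH2 is uncertain. Of 28 G1-S genes, CCNE2, cyclin E2 (0.36 ± 0.055, adjusted p = 0.00252), and GINS2, a replication fork protein (0.24 ± 0.043, adjusted p = 0.00756), were higher with PROG, and GINS2 missed the threshold with the 6 arrays alone (adjusted p = 0.0826). The aquaporin gene AQP3 was higher with PROG by 0.58 ± 0.11 (adjusted p = 0.0133), a call lost without PROG 2, PROG 3 or DEX 1 (adjusted p 0.0503 to 0.0715). MT2A was the 1 metallothionein of 11 called (0.25 ± 0.046, adjusted p = 0.0105), lost without PROG 1 or DEX 2 (adjusted p 0.0577 to 0.0667) and with the 6 arrays alone (adjusted p = 0.0681).

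The remaining lists held 1 or 2 calls each, beside 1.42% of all probe sets. CFLAR, a caspase-8 inhibitor, was the 1 call among 20 NF-kB and inflammatory genes (0.21 ± 0.046, adjusted p = 0.0340), lost without any 1 of the PROG arrays, DEX 1 or DEX 3 (adjusted p 0.0802 to 0.147), with the replicate block (adjusted p = 0.0609) and with the 6 arrays alone (adjusted p = 0.153). Among 18 apoptosis regulators, CFLAR and BCL2 were called in opposite directions. BAMBI, a decoy receptor of TGF-beta signalling, was higher with DEX (-0.28 ± 0.053, adjusted p = 0.0135), lost without PROG 1, PROG 3 or DEX 2 (adjusted p 0.0607 to 0.0705). Among 19 BTB zinc finger genes ZBTB7C and BCL6 were called in opposite directions, and among 15 hypoxia genes so were NDRG1 and ANGPTL4. The calls among 13 matrix genes were P3H2 and THBS1, and CLDN8 was the 1 call among 22 tight junction and adhesion genes.

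No member was called by limma among 17 Kruppel-like factors, 21 interferon-induced, 16 sterol synthesis, 19 insulin and growth factor signalling, 24 mitotic, 18 unfolded protein and stress, 16 ribosomal protein and 13 housekeeping genes. With 1.42% of all probe sets called, lists of this size would hold few calls in any case. At an unadjusted p under 0.05 these lists held 5, 1, 1, 3, 1, 3, 0 and 0 genes in the same order. The share over all probe sets was 9.89%. Without PROG 2, 1 Kruppel-like factor was called. Every interval in these 8 lists lay within 1.5-fold, as did those of 98.5% of all probe sets, so this does not set the lists apart. In the fatty acid list ACSL1 was the 1 call among 26 genes, beside 1.42% of all probe sets. FADS1, a desaturase, differed by 0.037 ± 0.066 (adjusted p = 0.922).

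The held calls were also read on the MPA and DHT arrays, which form no part of the PROG minus DEX difference, a reading added after the calls were seen. These arrays did enter the spread of the fit that gave the calls. Probe sets even within the MPA and DHT groups were thus more readily called, so the shares over all probe sets are not a like comparison. Of the 94 held probe sets higher with PROG, 91 had all 3 MPA arrays above all 3 DHT arrays, against 8.77% of all probe sets, and 0 had them all below, against 7.55%. Their median MPA minus DHT difference was 0.64, with quartiles of 0.40 and 0.88. ZBTB7C, for example, read 6.81, 7.03 and 7.19 with MPA and 4.98, 5.08 and 5.12 with DHT. CLDN8 was an exception, with 7.62, 7.60 and 7.49 against 7.63, 7.67 and 7.44. Of the 22 held probe sets higher with DEX, 8 had the MPA arrays all above and 7 all below the DHT arrays, and the median difference was 0.05. EPGN, at 6.45, 6.57 and 6.55 with MPA and 6.49, 6.38 and 6.24 with DHT, overlapped there.

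**Figure D5:**
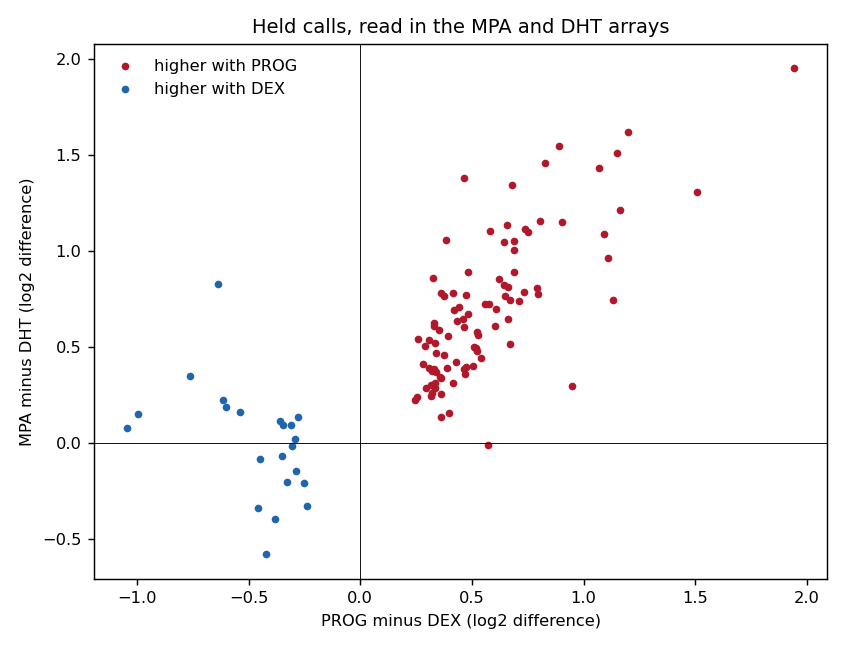
Each point is 1 held call. The PROG minus DEX log2 difference is on the horizontal axis and the MPA minus DHT log2 difference on the vertical axis. The MPA and DHT arrays form no part of the first difference but entered the spread of the fit that gave the calls. Red points (94, higher with PROG) lie above 0 but for CLDN8, with a median of 0.64, and blue points (22, higher with DEX) lie on both sides of 0.

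Promoter letters were searched in the 250 bases before each RefSeq start, where 71 of the 94 genes higher with PROG and 18 of the 22 higher with DEX had an entry. The palindromic steroid receptor element, searched with its less conserved bases open, was in none of them and in 0.281% of all genes tested with an entry. The half-site AGAACA, read on both strands and so also as TGTTCT, was in 7 genes of the first group (9.86%), 4 of the second (22.2%) and 12% of all genes tested. The AP-1 element TGANTCA was in 10 (14.1%), 0 and 7.04%, and the E-box CANNTG in 49 (69.0%), 14 (77.8%) and 63.4%. A palindrome can overlap a half-site. These are matches of letters, with no test, and a gene with several starts counts once if any window matches. The windows below are those of the 2 largest differences in each direction among the named genes whose window holds a half-site, which is in capitals (RefSeq, GRCh38.p14, 5′ to 3′). SGPP2 and CSRNP1 were higher with PROG, and EPGN and LINC00473 higher with DEX. Their windows share this half-site, which stands on both sides of the comparison.
SGPP2, chr2:222423738-222423987, plus strand: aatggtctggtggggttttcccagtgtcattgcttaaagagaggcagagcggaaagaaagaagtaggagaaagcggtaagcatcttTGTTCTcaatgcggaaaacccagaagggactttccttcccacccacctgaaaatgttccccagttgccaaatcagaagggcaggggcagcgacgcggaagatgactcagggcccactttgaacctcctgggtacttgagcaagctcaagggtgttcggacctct
CSRNP1, chr3:39154642-39154891, minus strand: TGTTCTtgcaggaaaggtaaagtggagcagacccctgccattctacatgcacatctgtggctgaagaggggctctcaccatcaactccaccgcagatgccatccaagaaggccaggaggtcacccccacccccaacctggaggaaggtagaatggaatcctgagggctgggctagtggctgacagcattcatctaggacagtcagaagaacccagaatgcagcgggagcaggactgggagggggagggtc
EPGN, chr4:74308220-74308469, plus strand: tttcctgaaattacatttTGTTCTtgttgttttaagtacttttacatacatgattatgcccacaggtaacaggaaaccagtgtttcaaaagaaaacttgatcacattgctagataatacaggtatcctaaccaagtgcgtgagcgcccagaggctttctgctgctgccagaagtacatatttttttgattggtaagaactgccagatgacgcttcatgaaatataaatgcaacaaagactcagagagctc
LINC00473, chr6:165988040-165988289, minus strand: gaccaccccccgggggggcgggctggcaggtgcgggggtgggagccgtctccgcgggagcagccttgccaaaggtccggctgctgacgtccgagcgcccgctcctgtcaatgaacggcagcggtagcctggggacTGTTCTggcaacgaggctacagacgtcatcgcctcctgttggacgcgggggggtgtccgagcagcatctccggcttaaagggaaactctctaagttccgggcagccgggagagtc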

How the data were processed

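Total RNA of ZR-75-1 cells was amplified, labelled with biotin and hybridised to 15 Affymetrix arrays, per the labels' protocols. The values the authors deposited are log2 levels for 34878 probe sets, and the submitters' processing notes name Partek and RMA, with no version, setting or build. RMA gives all arrays like distributions, which would hide a shift shared by most genes. The platform table gives 14841 probe sets 1 symbol, 0 several, and leaves 20037 unnamed. All 14841 matched the RefSeq gene table by gene ID.

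Values were used as deposited, with no filter. limma 3.58.1 in R 4.3.3 fitted 5 group means over 15 arrays (10 residual degrees of freedom, prior 3.81), 2-sided, with Benjamini-Hochberg adjustment over 14841 probe sets. Intervals are 95% intervals of this fit. Every adjusted p is from limma. The code was tested on simulated data. Alternatives were other samples in the fit, the replicate number as a block, filters, normalizations, variance models and leaving out each PROG or DEX array.

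Lists were read on each gene's brightest probe set. Named genes are the 15 largest held calls in each direction (protein-coding or long non-coding) whose groups do not overlap, up to 4 held list members, or up to 4 called ones where a list has at most 1 held, 17 fixed genes, of which NR3C1 and TSC22D3 have no named probe set and were not analysed here, and the 5 list members with the narrowest intervals around 0 among those called for both compounds. Other genes, such as EGFR, EGF, GRB7, IRS2, TIPARP, SCARNA7, ERBB3, ERBB4, PER2, FADS1, S100P, RANBP3L and CRISPLD2, were named after their values were seen. Members and lists were chosen with earlier results of these data known. PROG and DEX arrays of the same number did not deviate together (r -0.00851 to 0.0193). The number of arrays limits the precision.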

Additional observations from a re-analysis of the deposited data

How the results depend on the processing

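The comparison gave 211 calls. With only the 6 PROG and DEX arrays in the fit it gave 122, 99 higher with PROG and 23 higher with DEX. This fit has fewer arrays for the spread. With adjustment over all 34878 deposited probe sets, 173 of the named probe sets were called, and those higher with DEX numbered 38. With dim probe sets left out, 9314 intervals lay within 1.5-fold, of fewer probe sets tested. With the replicate block 194 were called. PROG and DEX arrays of the same number did not deviate together, and the other groups were not checked for this. Leaving out each array in turn gave 144 to 169 calls, 109 to 133 higher with PROG, 32 to 38 higher with DEX, 42 to 46 of at least 1.5-fold and 14481 to 14507 bounded intervals. Of the held calls, 94 were called with the 6 arrays alone, 110 with dim probe sets left out and all under each of the other 7 alternatives. Probe sets left out as dim were not tested there, so a held call missing from the 110 need not have lost its call. No difference of a named called gene changed sign under any alternative run.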

Other observations

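Among the held calls outside the fixed lists, chosen here after their values were seen, were some transcription factor genes higher with PROG. SP6 (0.75 ± 0.10), MXD1, a MAX partner that opposes MYC (0.58 ± 0.043), DLX2 (0.52 ± 0.062) and GATA6 (0.47 ± 0.068) were among them, as were SOX4 (0.37 ± 0.054), OVOL1 (0.36 ± 0.061) and GRHL2 (0.32 ± 0.042). MXD1 read 9.24, 9.23 and 9.21 with PROG and 8.69, 8.66 and 8.60 with DEX. GRHL2, an epithelial factor, read 10.41, 10.38 and 10.40 against 10.06, 10.08 and 10.08. Other transcription factor genes were called higher with DEX but not held, among them SOX9 (-0.26), POU2F3 (-0.30), FOXI1 (-0.27) and IRX6 (-0.22). Transcription factor genes were not counted as a class, so these examples give no direction for it. The groups did not overlap for any of these genes, as for all 211 called probe sets, so this adds nothing to the calls.

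Further held calls higher with PROG, also chosen after their values were seen, were LPAR3, a lysophosphatidic acid receptor (0.71 ± 0.11), ACKR3, an atypical chemokine receptor (0.69 ± 0.096), and HILPDA, a lipid droplet protein (0.69 ± 0.058). HILPDA read 8.05, 8.07 and 7.94 with PROG and 7.26, 7.31 and 7.43 with DEX. Of the probe sets without a gene symbol here, 128 were called when all deposited probe sets were tested together.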
